A study of Drosophila melanogaster with 2 samples.

Results

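The heat shock protein genes Hsp22, Hsp23, Hsp26, Hsp27, Hsp67Ba, Hsp67Bc, Hsp68, Hsp83 and Hsc70-4 were examined together with Hsf, the gene of the heat shock transcription factor, for binding of dmrt93B, a DM-domain transcription factor related to Doublesex. These 10 genes, of 13945 protein-coding genes on the chromosome arms with peaks, were taken by symbol from the annotation. The set was chosen from earlier results of the same peak lists, in which members already stood out by their peak signal, so all counts, signals and ranks below are a description with no test. Binding was profiled by ChIP-seq, in which chromatin fragments recovered with a protein are sequenced, in whole wandering larvae of the third instar of Drosophila melanogaster. The larvae came from the transgenic strain dmrt93B-GFP, in which a fusion of dmrt93B with GFP at its C-terminal end is stably expressed. The labels name no heat treatment, and the sequence that drives the fusion is not given in the sources used here. Males and females were pooled, the age in hours is given as unknown, and the values average over all tissues, so strong binding in few cells and weak binding in many cannot be told apart. The 2 samples are biological replicates of a single group, so every larva carried the transgene, and no untagged or untreated group was analysed here. The free-text description of both samples calls them input controls, whereas the assay name, the antibody label and a separately named control describe ChIP of dmrt93B. Grouping followed the antibody label, and the sources used here do not settle the conflict.

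Heat shock proteins are molecular chaperones that hold, refold or deliver damaged and newly made proteins. Their genes are known for rapid induction by heat, when the heat shock factor assembles as a trimer on arrays of short inverted repeats, the heat shock elements, in their promoters. In Drosophila, small heat shock genes at cytological position 67B are also known to respond to the moulting hormone ecdysone in late larvae, and heat shock promoters are a textbook case of paused RNA polymerase opened by the GAGA factor.

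Binding was read from a deposited optimal list of 4159 peaks, which were the 4159 strongest entries of the list made from pooled replicates, and from 1 relaxed list of 30000 entries for each replicate. Each peak has a summit, the base of its highest point, and a signal, the strength that the authors' peak caller wrote. Signals were compared only inside a list, as ranks or as descriptions. In the optimal list the median signal was 217 and the lowest was 113.

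Of the 10 members, 8 had an optimal summit in the gene body or within 2 kb of it, against 25.3% of all protein-coding genes. With a summit within 500 bp of an own annotated transcription start site (TSS), here called a promoter summit, there were 4 members, Hsp27, Hsp83, Hsc70-4 and Hsp26, against 13.1% of all protein-coding genes. The same 4 members had a promoter summit among the 4159 strongest entries of replicate 1, against 10.1% of all protein-coding genes, and among those of replicate 2, against 17.1%. The members were picked with these peaks known, so neither count bears on how often dmrt93B binds heat shock genes. Of the members inside the 2 kb limit Hsp23 lay farthest from its summit, at 1138 bp, and of those outside it Hsp68 lay nearest, at 17268 bp. The counts over genes are also not independent, because neighbouring 67B genes share summits in pairs. These pairs are Hsp23 with Hsp27, Hsp26 with Hsp67Ba, and Hsp22 with Hsp67Bc. Taken as loci, 3 of 5 loci held a total of 6 distinct summits, namely 3 in the 67B cluster, 2 at Hsp83 and 1 at Hsc70-4, and there was none at Hsp68 or Hsf. Of these 6 summits, 5 were matched within 200 bp by an entry of each replicate's full list, against 86.9% of all optimal summits.

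The summit base with 50 bp to either side, a summit window, shows the DNA under the strongest signal at each locus. The windows of 4 summits are printed because they hold no annotated untranslated sequence, with runs of 6 or more A or T in capitals. All sequences are from the NCBI Release 6 genome in dm6 coordinates and are written 5′ to 3′ on the strand of the gene. The Hsp27 window is chr3L:9383853-9383953 on the plus strand, the internal Hsp83 window is chr3L:3194202-3194302 on the plus strand, the Hsc70-4 window is chr3R:15242459-15242559 on the plus strand, and the Hsp26 window is chr3L:9377504-9377604 on the minus strand.
Hsp27 upstream: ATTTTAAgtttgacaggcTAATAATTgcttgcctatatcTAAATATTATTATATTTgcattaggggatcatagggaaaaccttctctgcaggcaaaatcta
Hsp83 internal: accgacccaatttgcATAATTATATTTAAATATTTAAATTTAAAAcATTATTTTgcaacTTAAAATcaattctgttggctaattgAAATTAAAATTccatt
Hsc70-4 upstream: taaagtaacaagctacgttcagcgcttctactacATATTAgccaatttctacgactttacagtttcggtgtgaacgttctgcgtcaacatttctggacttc
Hsp26 upstream: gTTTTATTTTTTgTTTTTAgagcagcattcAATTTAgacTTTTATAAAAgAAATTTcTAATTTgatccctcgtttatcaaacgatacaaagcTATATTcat
The Hsp26 and internal Hsp83 windows are crossed by many such runs, whereas the Hsc70-4 window has a single short one.

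The small heat shock proteins carry an alpha-crystallin domain and hold unfolding proteins until ATP-dependent chaperones act. The genes of 6 members lie in the 67B cluster on arm 3L, which spans 14184 bp from 9371511 to 9385694. The cluster held 3 optimal summits of very unequal strength, and the next optimal summits lay 35676 bp to its left and 34490 bp to its right. The strongest was upstream of Hsp27, with a signal 7.61 times that at Hsp26 and 11.5 times that at Hsp22.

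Hsp27 (FBgn0001226, 3L 9384063 to 9385694, plus strand) encodes a small heat shock protein found in the nucleus. Its optimal summit lay at 9383903, which is intergenic and 160 bp upstream of its only annotated TSS. The signal was 1990 in the optimal list, 1145 in replicate 1 and 843 in replicate 2. By rank these were places 19, 21 and 16, so the summit was the strongest of all member summits in every list. Its signal was 9.17 times the median of the optimal list. Among the 1821 protein-coding genes with a promoter summit, Hsp27 took place 15. The summits of the 2 replicates at Hsp27 differed by 12 bp, against a median shift of 27 bp over the 3614 optimal summits found in both replicates.

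Hsp26 (FBgn0001225, 3L 9376418 to 9377427, minus strand) encodes a cytosolic small heat shock protein and has 2 annotated start sites. Its optimal summit at 9377554 was intergenic, 127 bp upstream of the outer TSS and 179 bp upstream of the inner one. The signal was 261 in the optimal list, 121 in replicate 1 and 131 in replicate 2, at ranks 1658, 1866 and 1500. The summit was therefore close to the optimal median and held much the same place in both replicates, with a shift of 9 bp between them. Its optimal interval was narrow, at 108 bp against a list median of 424 bp. This was not so in either replicate, where the entry was wider. It ran from 9377354 to 9377753 in replicate 1 and from 9377330 to 9377759 in replicate 2. The summit also lay 248 bp from the body of Hsp67Ba.

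Hsp22 (FBgn0001223, 3L 9372931 to 9374964, plus strand) encodes a small heat shock protein of mitochondria. Its optimal summit at 9373458 lay in the annotated 5′ untranslated region, 527 bp downstream of the first TSS and 539 bp upstream of the inner TSS, 9373997. Hsp22 was thus just outside the 500 bp limit for a promoter summit, and the first of these start sites is shared with the overlapping gene CG4456, also known as Hsp67Bb. The signal was 173 in the optimal list, or 0.798 times the median, at rank 2664. Replicate 2 had an entry 7 bp away with a signal of 92.5 at rank 2440, but replicate 1 had no entry within 200 bp, and its nearest lay 4096 bp away. Presence in replicate 2 alone was seen at 528 of the 4159 optimal summits (12.7%), while 529 lacked an entry in replicate 1.

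Hsp23 (FBgn0001224, 3L 9381882 to 9382765, plus strand), another cytosolic small heat shock gene, counts among the 8 members only through the Hsp27 summit, which lay 1138 bp beyond its end. Within its own body it had weak entries in the relaxed lists alone. The nearest to its TSS in the pooled list had a signal of 34.4 at rank 18633, 345 bp downstream. Replicate 1 had 1 entry at nearly the same place, 337 bp downstream, with a signal of 29.1 at rank 11232. In replicate 2 the nearest entry lay 59 bp upstream with a signal of 23.8 at rank 14052. These ranks are well below the range of the optimal list.

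Hsp67Ba (FBgn0001227, 3L 9377802 to 9379534, minus strand) and Hsp67Bc (FBgn0001229, 3L 9371511 to 9372497, minus strand) also counted through a neighbour. Hsp67Bc encodes a small heat shock protein linked to autophagy. The Hsp26 summit lay 1980 bp downstream of the Hsp67Ba TSS, and the Hsp22 summit lay 961 bp upstream of the Hsp67Bc TSS. The pooled entry nearest to the Hsp67Ba TSS had its summit at 9380413, 879 bp upstream, with a signal of 51.4 at rank 10000. It lay in an exon of the antisense gene asRNA:CR43481, beside the inner annotated TSS of that gene at 9380359. Within Hsp67Bc, entries came from replicate 2 alone, with signals of 21.9 and 17.8 at ranks 15693 and 20610. Neither gene had an optimal summit in its own body.

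Across the cluster and its 2 kb flanks the full lists held 6 pooled entries, 3 entries of replicate 1 and 13 of replicate 2. Away from the 3 optimal summits there were 3 pooled entries with signals from 27.6 to 51.4, a single replicate 1 entry with a signal of 29.1, and 9 replicate 2 entries with signals from 14.1 to 73.4. The best of these, with its summit at 9371065, lay beyond the end of Hsp67Bc, in the neighbouring gene Fdx1. It fell in an intron of the longer transcript, beside the inner annotated Fdx1 TSS at 9371058. At rank 3308 it was among the 4159 strongest entries of replicate 2, with no optimal or replicate 1 entry beside it. The remaining annotated gene with a TSS inside the cluster, the small heat shock gene CG4461, had its nearest summit 1972 bp from its TSS, namely the one at Hsp22. The 2 replicates thus differed in the number of weak entries, although both lists have the same length. Of the 3 optimal summits, those at Hsp27 and Hsp26 had an entry in each replicate, whereas that at Hsp22 had none in replicate 1. Optimal peaks are the top of the pooled ranking, which favours a match between replicates there over one at weak entries. The contrast is therefore not particular to this cluster.

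**Figure D1:**
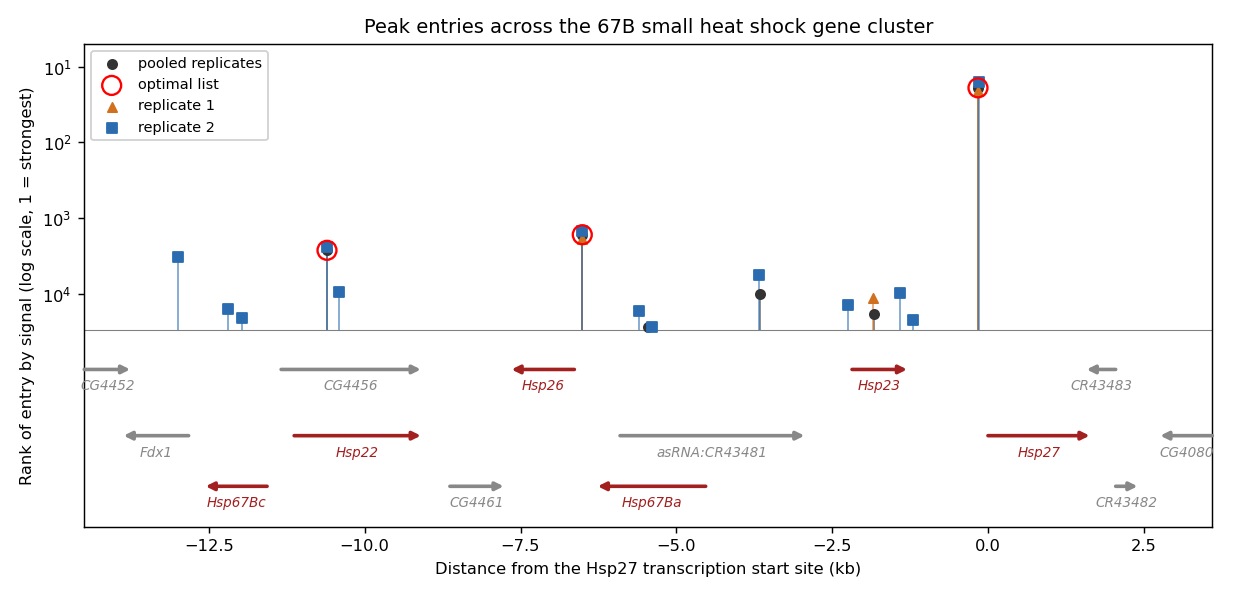
Entries of the pooled, optimal and replicate lists across the 67B cluster, with distance from the Hsp27 TSS in kb on the x axis and rank by signal on a logarithmic y axis with the strongest at the top; arrows below show genes, members in red. The Hsp27 summit at rank 19 stands far above those at Hsp26 (rank 1658) and Hsp22 (rank 2664), and the other entries rank lower in the pooled list or come from a single replicate, mostly replicate 2.

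Proteins of the Hsp70 family fold other proteins with ATP, and of its member genes Hsc70-4 had a promoter summit and Hsp68 did not. Whether this follows a contrast of constitutive with inducible genes was not tested. The cognate genes Hsc70-1, Hsc70-2 and Hsc70-3, named after their values were seen, had no optimal summit within 2 kb. Of these, Hsc70-3 had a promoter summit among the strongest entries of replicate 2. The cognate gene Hsc70-5 had an optimal promoter summit at rank 564. None of the listed inducible Hsp70 genes had one, an absence that is uncertain for reasons given below. Hsc70-4 (FBgn0266599, 3R 15242687 to 15246614, plus strand) encodes the abundant cytosolic cognate that serves folding and clathrin uncoating without stress. Its optimal summit at 15242509 was intergenic, 178 bp upstream of the outermost of 6 annotated start sites. The divergent gene tefu has its TSS at -0.451 kb from that start site. The summit thus lay between both genes, within 500 bp of a TSS of each, and cannot be assigned to Hsc70-4 alone. The signal was 315 in the optimal list, 199 in replicate 1 and 116 in replicate 2, at ranks 1317, 990 and 1772. The interval covered 151 bp, and the replicate summits lay 18 bp apart. Within the gene and 2 kb around it, the entries away from this summit were weak, with signals from 36.8 to 46.3 for 2 pooled entries, 20.2 for 1 replicate 1 entry and 15.5 to 27.5 for 4 replicate 2 entries.

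Hsp68 (FBgn0001230, 3R 24055080 to 24057310, minus strand) is an inducible Hsp70-type gene. It had no optimal, pooled or replicate 1 entry in its body or within 2 kb, and its nearest optimal summit lay 17268 bp from the gene. Replicate 2 alone held 3 entries in this region. The closest to the promoter had its summit at 24057470, 160 bp upstream of the TSS, with a signal of 26.1 at rank 12406. Another, 938 bp upstream, had a signal of 37.5 at rank 7812. It lay beside the TSS of the divergent gene SMC1, which is at -0.977 kb from the Hsp68 TSS. Both entries are weaker than the lowest ranks counted in the strongest 4159 entries, and no entry of replicate 1 lay beside them.

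Hsp83 (FBgn0001233, 3L 3192969 to 3197059, plus strand) encodes the cytosolic Hsp90, which matures kinases and steroid receptors, including the ecdysone receptor. It was the member with the most optimal summits, with 1 at a start site and 1 in an intron. The first, at 3193107, lay 109 bp upstream of the inner TSS and 138 bp downstream of the outer one, in the 5′ untranslated region of the longer transcript. Its signal was 603 in the optimal list, 214 in replicate 1 and 376 in replicate 2, at ranks 430, 893 and 192. Of the 5 member summits found in both replicates this one moved most in rank on the log2 scale, though not in number of places. The log2 ratio of its replicate 2 rank to its replicate 1 rank was -2.22, and 0.581% of the 3614 optimal summits with entries in both replicates had a lower value. The internal summit at 3194252 lay 1036 bp downstream of the inner TSS and had signals of 482, 259 and 215 at ranks 666, 675 and 635. The internal summit was the stronger of the pair in replicate 1 and the weaker in replicate 2, so their order is not fixed by these data. At Hsp83 no pooled or replicate 1 entry lay away from these summits, and replicate 2 had 2 weak ones with signals of 13.3 and 16.6.

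Hsf (FBgn0001222, minus strand), whose product activates heat-inducible genes on stress, lies on 2R from 18130303 to 18134634. It had no entry of any list in its body or within 2 kb. The nearest optimal summit lay 35034 bp from the gene, with a signal of 1415 at rank 62. The nearest entry of replicate 2 was 4240 bp away and that of replicate 1 was 13502 bp away. Binding weaker than the entries of these lists was not measured.

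**Figure D2:**
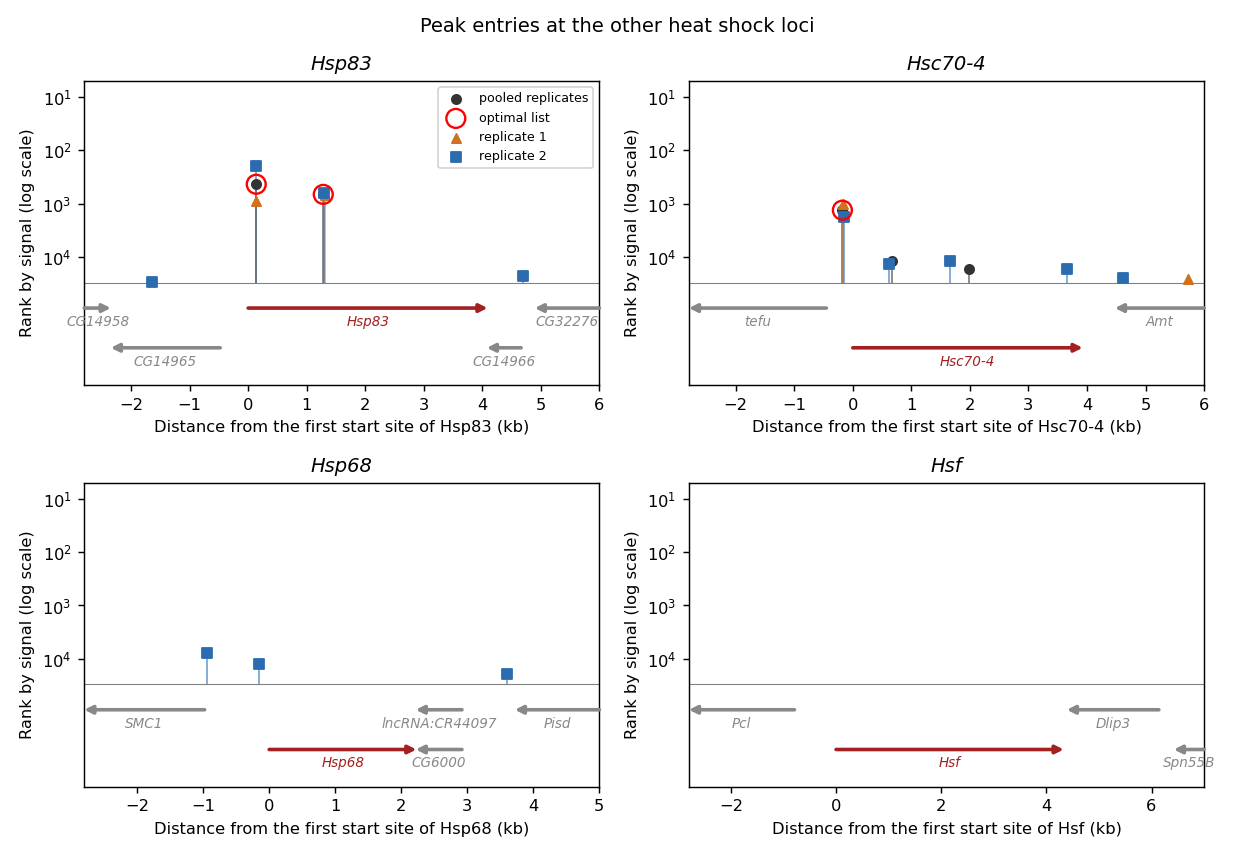
Entries of the pooled, optimal and replicate lists at Hsp83, Hsc70-4, Hsp68 and Hsf, with distance from the outermost TSS in kb along the direction of the gene on the x axis and rank by signal on a logarithmic y axis; arrows show genes. Hsp83 carries summits at ranks 430 and 666 and Hsc70-4 at rank 1317, Hsp68 has replicate 2 entries alone, and Hsf has none.

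Across the 3 lists, the order of the member summits was partly stable. Hsp27 came first in each list, with the next member summit at place 430 in the optimal list. The order of the 2 Hsp83 summits and that of Hsc70-4 and Hsp26 was reversed between replicates, so the summits of each of these pairs do not differ in rank beyond the spread of the 2 samples. The internal Hsp83 summit stood above that of Hsc70-4 in both replicates. The log2 rank ratio of replicate 2 to replicate 1 was -0.39 at Hsp27, -0.09 at the internal Hsp83 summit, 0.84 at Hsc70-4 and -0.31 at Hsp26. Over the 3614 optimal summits found in both replicates its median was 0.35, with 10th and 90th percentiles of -0.47 and 1.14. The Hsp27, Hsp26, Hsc70-4 and internal Hsp83 summits lay within these percentiles and the upstream Hsp83 summit lay below them.

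**Figure D3:**
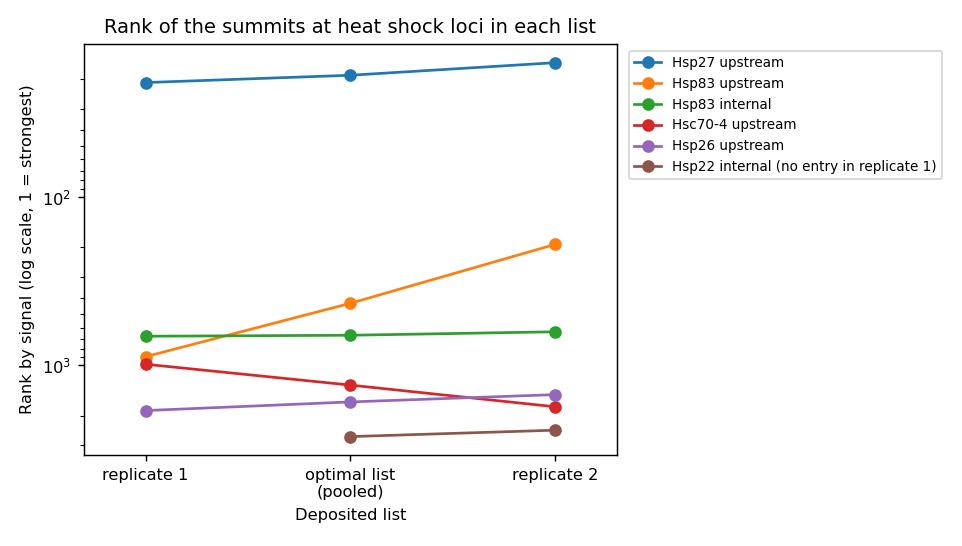
Rank by signal (logarithmic y axis, strongest at the top) of the 6 member summits in replicate 1, the optimal list and replicate 2 (x axis); each line joins the ranks of 1 summit. Hsp27 stays between places 16 and 21, the upstream Hsp83 summit moves from 893 in replicate 1 to 192 in replicate 2, and Hsp22 has no replicate 1 entry.

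The promoter summits with the pattern closest to that of Hsp27, by the sum of absolute differences in log2 rank over the optimal list and both replicate lists, were at Tcs5, Art3 and CG5611. Tcs5 ranked 17, 20 and 18 in the optimal list, replicate 1 and replicate 2, with its summit 105 bp upstream of its TSS and a summed difference of 0.40. Art3, a gene of the arginine methyltransferase family, ranked 18, 18 and 21 with its summit 123 bp upstream and a summed difference of 0.69. CG5611 ranked 16, 16 and 22 with its summit 136 bp upstream and a summed difference of 1.10. The pooled list is made from the same libraries as the replicate lists, so these are not 3 independent points.

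The GC content of the 6 member windows ranged from 20.8% to 48.5%, beyond the 10th and 90th percentiles of the whole list at 22.8% and 44.6%. Their mean GC content was 32.5%, against 33.0% (SD 8.62) over all 4159 optimal summits, and it was 45.1% in the windows 500 bp to either side of the member summits, against 43.7% around all optimal summits. At Hsp27 the window had 31.7% GC, with 42.6% and 61.4% in the windows 500 bp before and after it. Nearer by, GC was 42.6% and 50.5% at 100 bp before and after, but 26.7% and 27.7% at 250 bp. The Hsp27 summit was thus not the most AT-rich point of its surroundings. At Hsp26 it had 24.8%, at Hsp22 28.7% and at the internal Hsp83 summit 20.8%, the lowest of the members, below which lay 3.97% of optimal summits. The Hsc70-4 window had 40.6%, much like the 43.6% and 39.6% of the windows 500 bp before and after it. Nearer by, GC was not even, with 24.8% at 100 bp before the summit and 41.6% at 100 bp after it. The upstream Hsp83 window went the other way, with 48.5% GC between surroundings of 33.7% and 37.6%, and 93.6% of optimal summits had a lower value. Member summits thus included both AT-rich dips and a local rise in GC.

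**Figure D4:**
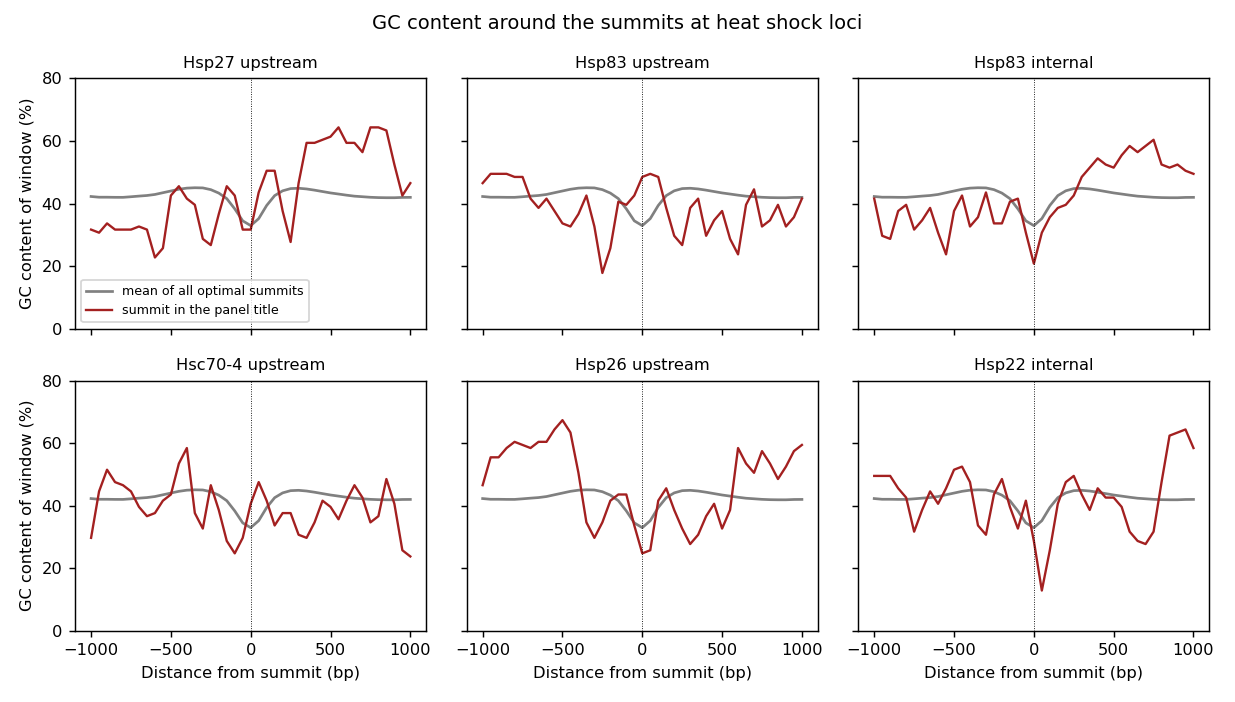
GC content in percent of windows of 50 bp to either side of a point (y axis) against distance from the summit in bp in genome order (x axis) for the 6 member summits, with the mean of all 4159 optimal summits in grey. At the summit the mean dips to 33.0% and the internal Hsp83, Hsp26 and Hsp22 windows have 20.8%, 24.8% and 28.7%, while the upstream Hsp83 window has 48.5%.

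Runs of 6 or more A or T covered 31.2% of the member windows on average and 26.9% of all optimal windows, against 13.9% of windows 500 bp away from optimal summits. Their share was 55.4% at the internal Hsp83 summit, 50.5% at Hsp26, 43.6% at Hsp22 and 31.7% at Hsp27. It was 5.94% at Hsc70-4, and the upstream Hsp83 window had no such run. The longest stretch of A and T measured 30 bp at both the internal Hsp83 and the Hsp22 summit, 17 bp at Hsp27 and 11 bp at Hsp26. The cores of DM-domain sites were searched on both strands as ACAATGT, which belongs to the Doublesex site, and TGTATCA, which belongs to the DMRT1 site known from mouse. Neither was found in any of the 6 windows, and they were present in 2.04% and 1.32% of all optimal windows, which says only that these letters are not in these windows.

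Heat shock elements were searched on both strands as GAANNTTC or TTCNNGAA, which is 2 inverted units with 2 bases between their cores, with overlapping matches counted. Elements of 3 alternating units were counted apart and contain overlapping matches of the shorter form. Only exact matches were counted, so elements with a mismatch in a unit are missed and all counts of elements below are of exact matches. In these promoters the units stand in capitals, with 10 bases of context to either side. They are shown for the elements nearest to the summits of Hsp26 (chr3L:9377538-9377565, minus strand), Hsc70-4 (chr3R:15242520-15242547, plus strand) and Hsp27 (chr3L:9383715-9383742, plus strand), and for the arrays of Hsp68 (chr3R:24057460-24057502, minus strand) and Hsp23 (chr3L:9381467-9381499, plus strand), which had no optimal promoter summit.
Hsp26: ttttataaaaGAAATTTCtaatttgatc
Hsc70-4: gtttcggtgtGAACGTTCtgcgtcaaca
Hsp27: gaaatgtcaaGAAGTTTCtggttctttc
Hsp68: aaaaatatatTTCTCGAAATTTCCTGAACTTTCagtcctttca
Hsp23: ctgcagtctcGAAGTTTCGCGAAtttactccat
The Hsp68 stretch holds 4 overlapping matches and 3 elements of the longer kind, and the Hsp23 stretch holds 2 and 1, whereas the other 3 stretches hold a single match each.

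A heat shock element was present in the summit window of 3 of the 6 member summits, namely Hsp26, Hsc70-4 and upstream Hsp83. The same letters were in 6.35% of all optimal windows, in 5.60% of the windows of 1501 optimal promoter summits, and in 4.42% of windows 500 bp away. Around the member summits, 4 of the 12 windows 500 bp away also held one, so the elements were frequent at these loci beside the summits as well. The element nearest to its summit was at Hsp26, with its centre 2 bp away, followed by those at Hsc70-4 (24 bp) and upstream Hsp83 (44 bp). At Hsp27, the strongest member summit, the nearest element lay 174 bp away, from 338 to 331 bp upstream of the TSS. At the internal Hsp83 summit it was 114 bp away and at Hsp22 354 bp, against a median of 706 bp over all optimal summits. Signal and distance to the nearest element therefore did not follow the same order over the members.

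Heat shock elements occurred at members with and without a promoter summit. Hsp68 had 6 elements from 182 to 46 bp upstream of its TSS, more than any other member in the window of 250 bases before to 50 after a TSS, and no optimal summit. The weak replicate 2 entry at Hsp68 had its summit at 24057470, the base at which the array of 4 overlapping matches ends. Hsp23 had 4 elements from 405 to 131 bp upstream and Hsp22 had 3, neither with a promoter summit. Hsp26 had 5 exact matches near its start sites and a summit of middling strength, and Hsp27 had a single exact match and the strongest summit. Hsp83 had 2 elements, and Hsc70-4 had 8, which are spread over its 6 start sites. Hsp67Bc and Hsf had 1 each, that of Hsp67Bc being shared with Hsp22, and Hsp67Ba had none.

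Counted in the window of 250 bases before to 50 after the outermost TSS, 5 of 10 members held an element, against 16.0% of 13945 protein-coding genes. In the same window at any annotated TSS it was 7 of 10 members against 20.0% of these genes, and with 500 bases before the TSS it was 9 of 10 against 32.4%. Elements of 3 units occurred near start sites of Hsp68, Hsp23 and Hsc70-4, and in none of the 6 summit windows, against 0.264% of all optimal windows. Other promoter motifs were searched in the same way on both strands. GAGAG, read by the GAGA factor, was in none of the 6 summit windows and in 8.68% of all optimal windows, although the promoter window of Hsp26 held 6 matches. TATAAA was in 1 of the 6, that of Hsp26, and in 22.9% of all optimal windows. TATCGATA, the site of DREF, was in none of the 6 and in 0.986% of all optimal windows, and the promoter window of the outer Hsp83 TSS held 1 match.

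**Figure D5:**
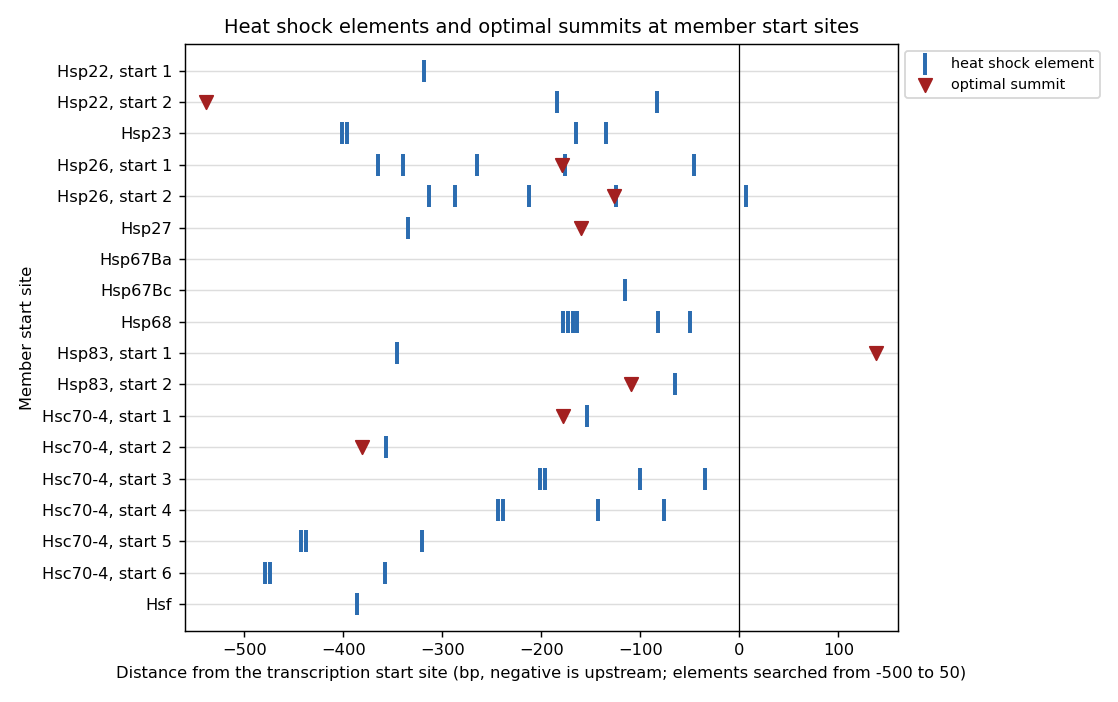
Centres of heat shock elements (bars) and optimal summits (triangles) relative to each annotated member TSS, with distance in bp on the x axis (negative upstream; elements searched from 500 before to 50 after) and 1 line per TSS. The Hsp26 summit falls on an element, the Hsp27 summit lies 174 bp from the only exact match found there, and Hsp68 and Hsp23 have elements but no summit.

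The wider chaperone system was read from lists with 61 symbols, of which 58 matched the annotation. Of these 58 genes, 7 had a promoter summit (12.1%) and 14 a summit in the body or within 2 kb (24.1%), near the shares of 13.1% and 25.3% over all protein-coding genes. The promoter count depended on the list. It was 7 of 58 (12.1%) in the strongest entries of replicate 1, where all protein-coding genes had 10.1%, and 13 of 58 (22.4%) in those of replicate 2, where all had 17.1%. None of 6 inducible Hsp70 genes had an optimal summit. Hsp70Aa and Hsp70Ab had no entry in either replicate list within 2 kb, and a lone replicate 1 entry lay near Hsp70Bc. These copies are nearly identical, and how reads that map to several places were handled is not stated in the labels or files, so an absence of peaks there is uncertain. None of 6 other genes listed as small heat shock genes had a promoter summit, and the protein domains of these genes were not checked. Those with a summit within 2 kb included CG4456 and CG4461, whose summits are those of Hsp22 and Hsp26. None of 12 chaperonin genes, including Hsp60A and CCT1, had an optimal summit, although Hsp60A and CCT8, the latter named after its values were seen, had a promoter summit among the strongest entries of replicate 2.

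Among the remaining relatives, Hsc70-5, the mitochondrial Hsp70, had a summit at its TSS with a signal of 529 at rank 564. Of 11 Hsp90 paralogs and co-chaperones, stv, which encodes a BAG-domain partner of Hsc70-4, had a weak promoter summit with a signal of 130 at rank 3562 and a stronger summit within 2 kb with a signal of 424 at rank 829. Of 7 J-domain genes, mrj had one with a signal of 295 at rank 1414. The factors that act at heat shock promoters had the most, with 3 of 10 genes. Nelf-E had a signal of 873 at rank 187 and TH1 one of 557 at rank 505, and both encode subunits of the negative elongation factor that holds paused polymerase. Trl, the gene of the GAGA factor, had one of 390 at rank 944 and a far stronger summit in an intron, with a signal of 1667 at rank 40. The heat-inducible non-coding gene lncRNA:Hsromega had a summit 168 bp downstream of a TSS with a signal of 469 at rank 695. With list sizes from 1 to 12 genes these counts differ from the background by few genes, and nothing particular to a list was tested.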

How the data were processed

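ChIP-seq peak lists of 2 biological replicates of dmrt93B-GFP larvae were used, with coordinates on dm6, per the labels. The authors deposited a relaxed list of 30000 entries per replicate, a relaxed list of the pooled replicates and an optimal list of 4159 peaks, named as thresholded for reproducibility. The optimal peaks were the strongest of the pooled list, and 529 of them lacked a replicate 1 entry within 200 bp. A place in the optimal list thus does not mean that a peak was found in each replicate. The signal of each peak in the deposited lists is the authors' peak strength and was used only to describe and rank peaks within a list. The −log10 q value in the deposited lists was 3.91 at all 6 member summits and was not used for ranking. Not given in the sources used here are the read depth, the aligner, the peak caller, the threshold of reproducibility and the treatment of multiply mapped reads. The named control was not analysed here. Because the depth is unknown, no counting interval is given. A gene without a peak is a gene without an entry of sufficient strength, not one without binding.

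Summits were computed from the interval start and the summit column, made 1-based, and set against the Ensembl annotation, release 115, and the NCBI Release 6 sequence. The 10 members had the same coordinates in the RefSeq gene table. Summits within 200 bp were taken as matched, and flanks of 2 kb and 500 bp defined nearby and promoter summits. Sequence was read in windows of 50 bp to either side of the summit. The members, gene lists and comparisons were chosen with earlier results of these data known, so no test was run and no p-value is given. The genes named were the 10 members, the genes with a TSS in the 67B cluster, the listed genes with a promoter summit (up to 2 for lists with none), and the 3 genes closest to Hsp27 in rank. Neighbouring genes with a start site near a described summit or entry were named after their positions were seen. Of 61 list symbols 58 matched. Alternatives changed the flank, the promoter and match distances, the list, the window, the element and the replicate used. Peak assignment and element search were tested on simulated data, where 200 of 200 planted promoter summits and 500 of 500 planted elements were recovered. Every summit was planted inside the promoter limit and every element as GAACCTTC, so this checks the code alone. The order TTCNNGAA, overlapping matches, elements of 3 units and the sign of offsets were not covered. Python 3.11.15, numpy 2.4.6, pandas 2.3.3 and matplotlib 3.10.9 were used.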

Additional observations from a re-analysis of the deposited data

How the results depend on the processing

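Counting summits in gene bodies alone left 2 members with a summit and 3 summits, since the Hsp27, Hsp26 and Hsc70-4 summits lie upstream of their gene. A window of 100 bp to either side moved the mean GC content of the member summits to 35.2%, while all optimal summits had 34.8% in that window. Requiring 3 inverted units left 0 member summits with a heat shock element. Using the strongest entries of a single replicate, the listed genes with a promoter summit ranged from 7 without replicate 2 to 13 without replicate 1, while the share over all protein-coding genes was 10.1% and 17.1%. On the same lists the members with a summit ranged from 6 to 8, the summits from 5 to 7, the rank of the Hsp27 summit from 16 to 21, and the members with a promoter summit stayed at 4. The other flank, match, interval and list settings left the counts of members, summits and matches within 1.5 times the reported ones, and a promoter window of 1000 bp gave 6 members. No paired analysis was possible because there is a single group and no test. The unknown depth limits what a missing peak means, and with 2 replicates the spread of a rank rests on a single difference.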
